A study of Mus musculus with 4 samples.

Results

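The cells described here were chosen from a pooled single-cell RNA sequencing matrix of mouse 4T1 tumours by the transcripts of Cd209a, a C-type lectin that marks type 2 dendritic cells, and are called the Cd209a class. A barcode was a member if it held 2 or more unique molecular identifiers (UMIs, each standing for 1 captured transcript molecule) of Cd209a and 5 or more of H2-Ab1. It also had to hold none of Xcr1 or Clec9a, not both Ccl22 and Ccr7, under 0.3% of its UMIs from C1qa, C1qb and C1qc, and none of Cd3d or Cd3g. Of 32133 cells with at least 300 genes and at most 15% mitochondrial UMIs, 255 were members, or 0.794% (95% interval 0.699 to 0.897%, exact Clopper-Pearson). Because these same counts chose the members, their levels of the 11 genes of the rule are a description, and every contrast with another class is given without a test.

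The tumours were grown from 1000000 4T1 cells, a mammary carcinoma line, in the right flank of female BALB/c mice aged 6 to 8 weeks, and immune cells were enriched by a sort for CD45. By the labels, 2 samples (PBS+NIR) came from mice given PBS into a vein on day 7 and 1 sample (TIOs+NIR) from mice given TIOs, porous dead cells of a mouse macrophage line that were frozen in liquid nitrogen and carry upconversion nanoparticles. Every group, controls included, received near-infrared light (NIR) of 980 nm at 1.0 W cm-2, for 5 min a day from day 8 to day 10, and tumours were taken on day 13. The remaining sample is titled PBS while its protocol names TIOs, so it was put in no group. The matrix joins 4 libraries, numbered 1 to 4 here by their barcode suffix, and the sources used here do not tie a suffix to a sample. No treatment was therefore compared, and each library is a sample of unknown treatment. Neither the labels nor the methods state how many mice a library holds. Libraries 1 to 4 held 108646352, 81369540, 69255999 and 96493208 UMIs. A member held a median of 10185 UMIs (716 to 86743) and 3023 genes. Intervals given here are exact 95% intervals, and they cover counting error only.

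Type 2 dendritic cells are the conventional dendritic cells that take up antigen at tissue sites and present its peptides on class II MHC molecules to CD4+ T cells. Their development rests on the cytokine receptor Flt3 and on Irf4 among other factors, while type 1 dendritic cells depend on Irf8 and Batf3 and excel at presenting captured antigen on class I MHC. In inflamed tissue, monocytes can take on Cd209a and class II genes as well, so the Fc receptor gene Fcgr1 and the surface antigen gene Ly6c2, both used as markers of the monocyte lineage, are commonly read beside Flt3. The class II genes are switched on together by the coactivator Ciita, which acts through proteins bound to the X and Y boxes of their promoters.

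The promoters below are shown because class II genes were among the most abundant transcripts of the class and because Cd209a chose it. Each is the run of 250 bases that ends just before the annotated start, 5′ to 3′ on the gene's own strand, from RefSeq on GRCm38.p6. Capitals mark letters of a search on both strands for CTGATTGG, the core of the Y box, or for a form of the X box, which H2-DMb1 shows.

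H2-Aa, chr17:34287824-34288073, minus strand: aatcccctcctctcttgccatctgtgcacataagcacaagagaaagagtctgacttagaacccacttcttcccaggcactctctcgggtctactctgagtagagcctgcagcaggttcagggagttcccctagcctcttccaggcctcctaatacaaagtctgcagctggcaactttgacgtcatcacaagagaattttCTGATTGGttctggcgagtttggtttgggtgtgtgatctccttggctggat

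H2-Eb1, chr17:34305617-34305866, plus strand: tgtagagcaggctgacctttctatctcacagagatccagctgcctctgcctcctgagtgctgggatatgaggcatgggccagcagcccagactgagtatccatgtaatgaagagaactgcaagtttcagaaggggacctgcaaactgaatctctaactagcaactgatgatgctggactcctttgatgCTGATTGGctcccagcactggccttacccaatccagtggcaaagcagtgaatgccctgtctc

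H2-DMb1, chr17:34152941-34153190, plus strand: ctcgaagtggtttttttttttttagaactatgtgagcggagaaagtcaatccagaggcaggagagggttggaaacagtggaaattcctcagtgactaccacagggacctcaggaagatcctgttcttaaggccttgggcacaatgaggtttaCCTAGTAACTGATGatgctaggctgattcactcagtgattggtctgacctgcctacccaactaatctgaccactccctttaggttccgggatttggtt

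Cd209a, chr8:3748985-3749234, minus strand: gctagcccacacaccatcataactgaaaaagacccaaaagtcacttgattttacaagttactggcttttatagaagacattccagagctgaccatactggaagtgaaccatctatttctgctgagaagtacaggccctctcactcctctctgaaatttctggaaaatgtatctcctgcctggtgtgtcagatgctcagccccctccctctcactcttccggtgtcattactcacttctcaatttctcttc

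Of the 17 genes of the class II list, 11 had a promoter in the table. CTGATTGG stood in 4 of these 11 (H2-Aa, H2-Eb1, H2-Eb2 and H2-Oa), against 3.83% of all 32851 promoters cut to the same length. In H2-Aa its first letter lay 51 bases before the start, and in H2-Eb1 62 bases before it. The X box form stood in H2-DMb1 as CCTAGTAACTGATG, 98 bases before the RefSeq start, and in 0.0731% of all promoters. GENCODE vM21 starts H2-DMb1 earlier, at chr17:34153072, within the window shown, so the match lies after that start. Neither motif was in the windows of the 7 genes of the Cd209 family, and no position overlapped between both motifs in the genes shown. A match is only a match of letters.

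The filter steps show how the class was reached and how sharp its edges are. From the kept cells, 369 held 2 or more Cd209a UMIs and 284 of these 5 or more of H2-Ab1. The limits on Xcr1 and Clec9a left 275 cells, that on Ccl22 and Ccr7 left 266, that on C1q left 261 and that on Cd3d and Cd3g left 255. Members held a median of 7 Cd209a UMIs and at most 42, and a median of 59 H2-Ab1 UMIs. Just inside the first limit were 40 members with exactly 2 Cd209a UMIs, and just outside it 77 cells with 1 that met the other limits. Clec10a stood at 115 CPM (summed UMIs scaled to a total of 1000000) in the cells just outside, 186 CPM in those just inside and 323 CPM in members with 3 or more. For Mgl2 these levels were 124, 235 and 694 CPM, and for Ly6c2 210, 141 and 88.2 CPM. The cells near the edge thus held less of both lectins and more Ly6c2. Other genes of the monocyte lineage did not follow 1 order, with Ccr2 at 398, 558 and 530 CPM and Fcgr1 at 249.7, 121 and 155 CPM. Cd209a itself stood at 789, 996, 586 and 629 CPM in the members of libraries 1 to 4, and no 2 members shared a barcode sequence.

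The listed markers of type 2 dendritic cells were present in the class, several of them in few cells. Clec10a (CD301a), a galactose-binding lectin, had a UMI in 70.2% of the members (64.2 to 75.7%), Sirpa, the receptor for CD47, in 82.0%, and Itgam, the integrin CD11b, in 78.4%. The shares for neutrophils, whose median depth was 1875.5 UMIs, were 1.19%, 31.7% and 47.0%. Members were deeper, with a median of 10185 UMIs, and these shares were not thinned. In the contrast with C1q macrophages of library 2, Clec10a, Sirpa and Itgam were not apart. Flt3, the receptor that sustains dendritic cells, had a UMI in 78 of 255 members (30.6%) and in 0.392% of neutrophils. With every cell thinned to 1000 UMIs, these shares were 4.33% and 0.0888%. Its level in the 4 libraries was 0, 36.1, 48.7 and 52.0 CPM, and type 1 dendritic cells stood at 149.8 CPM. Irf4, a transcription factor of the type 2 lineage, stood at 65.8, 48.3, 37.3 and 34.4 CPM in libraries 1 to 4 and had a UMI in 34.5% of the members. Zbtb46, a factor shared by conventional dendritic cells, stood at 15.5 CPM, against 24.8 CPM in type 1 dendritic cells and 1.26 CPM in monocytes. Clec4a4 had a UMI in 4 members and Esam, a marker of the splenic Notch-dependent subset, in 2. Dtx1 had none, Tbx21 was in 3 members and Cd4 in 9. The monocyte genes Ccr2 (83.5% of members), Plac8 (87.5%) and Ms4a4c (82.0%) were also widespread. Of the listed markers, Clec10a, Sirpa and Itgam were thus widespread, while Flt3 and Irf4 were found in fewer cells. Flt3 and Cd24a stood lower than in type 1 dendritic cells in libraries 2 and 4. As 125 members also held Fcgr1 and 177 held no Flt3 UMI, the class is named here only by its rule.

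Classes used for contrast were set by similar rules from the same cells, and the dendritic and macrophage classes also needed 5 or more UMIs of H2-Ab1. Type 1 dendritic cells (106 cells) held 2 or more UMIs of Xcr1 and Clec9a, and mature dendritic cells (54) held both Ccl22 and Ccr7. C1q macrophages (1218) held 0.3% or more C1q UMIs. Monocytes (3528) held 2 or more Ly6c2 UMIs with Ccr2, and neutrophils (5862) held Csf3r with at least 1% of UMIs from S100a8 and S100a9. The rules for type 1 dendritic cells and monocytes barred any cell with a Cd209a UMI, and that for C1q macrophages barred 2 or more. Contrasts of these classes in the Cd209 family and in genes that go with Cd209a therefore only describe. The neutrophil rule did not bar members of the Cd209a class, and 4 of them met it.

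**Figure D1:**
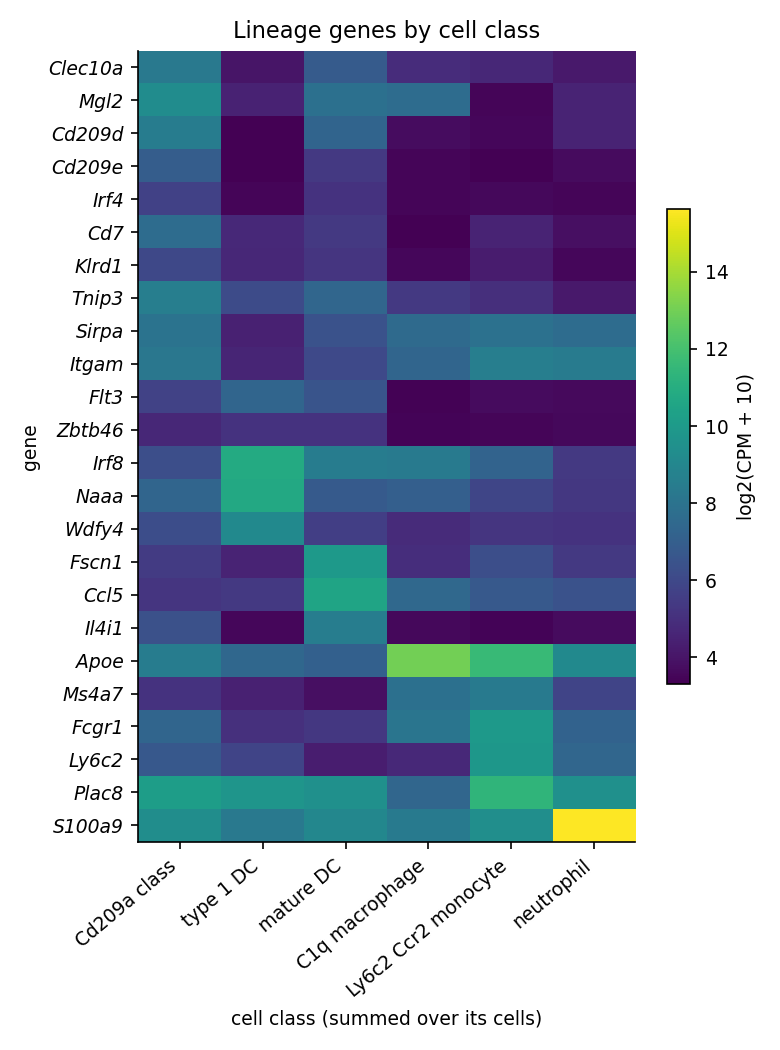
Levels of 24 lineage genes (rows) in 6 cell classes (columns), as log2 of the CPM of summed UMIs plus 10, with lighter colours for higher levels. The Cd209a class carried Clec10a, Mgl2, Cd209d and Irf4 above every other class drawn, with little of the type 1 gene Irf8 (68.4 against 1822 CPM) and of the macrophage gene Apoe (344 against 8289 CPM).

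Some neighbours of Cd209a on chromosome 8 were also found in the class. Cd209a lies at chr8:3743397-3748984 (GENCODE vM21, GRCm38, minus strand), Cd209e at chr8:3847965-3854309 and Cd209d at chr8:3871824-3878555, all protein-coding lectin genes of one cluster. Cd209d stood at 373, 421, 403 and 238 CPM in libraries 1 to 4 and had a UMI in 121 of 255 members. It was not seen in type 1 dendritic cells (0 of 1815178 UMIs), whose rule barred cells with Cd209a. Its level over the class was at least 210-fold higher than the limit that 3 UMIs over that group set. Cd209e stood at 21.9, 238, 71.4 and 8.39 CPM in the libraries, at least 70.0-fold above that limit over the class. Of the 67 members with Cd209e, 55 also held Cd209d. Cd209c was low (10.1 CPM), Cd209b and Cd209g lower (5.38 and 1.58 CPM), and Cd209f was at 0. No stretch of 31 bases in a Cd209a, Cd209d or Cd209e transcript of the annotation occurred in another gene of the family, so these counts are not split between them. Clec10a and Mgl2 (CD301b), a pair of related lectins on chromosome 11, share 13.7% and 19.3% of such stretches, and reads from these are uncertain between both genes. Cd209f and Cd209g share 36.3% and 20.1% of theirs, so the low levels of both are uncertain too.

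Over 17 sums of UMIs by library and class, the genes nearest to Cd209a by the Pearson correlation of log2(CPM + 10) were Cd209c (0.97), Irf4 (0.96), Ngfr (0.95), Clec4g (0.94), AY761185 (0.94), Cd209d (0.92), Ccr6 (0.91), Kcne3 (0.91), Clec4b1 (0.89) and Ffar2 (0.89). The sums of a library share its depth and its free RNA, and the class itself supplies the high points, so these values only describe. Clec4b1, a lectin of the DCAR group, stood at 0, 75.2, 77.9 and 153 CPM and Ffar2, a receptor for short-chain fatty acids, at 0, 59.1, 22.7 and 83.9 CPM in libraries 1 to 4. AY761185, a defensin-related gene, stood at 0, 156, 133 and 34.4 CPM and had a UMI in only 24 of the members.

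Class II presentation genes were among the most abundant of the class. Cd74, the invariant chain that guides class II molecules through the cell, was its most abundant gene after ribosomal and mitochondrial genes, at 26269.6, 17164, 19555 and 19412 CPM in libraries 1 to 4. H2-Aa, the alpha chain of I-A, stood at 10196, 7968, 9588 and 8627 CPM, and H2-Eb1, the beta chain of I-E, at 5964, 3992, 5689 and 5503 CPM. All members held UMIs of these genes, against 30.9%, 16.1% and 14.2% of neutrophils. H2-Ea-ps, which the annotation calls a polymorphic pseudogene since the reference strain does not make its transcript, stood at 5219, 4607, 6595 and 5911 CPM in these BALB/c cells, a strain that makes I-E. The peptide editors H2-DMa and H2-DMb1 stood at 841 and 828 CPM, and their inhibitors H2-Oa and H2-Ob at 25.0 and 16.2 CPM. Ciita stood at 175, 95.9, 66.6 and 143 CPM and had a UMI in 59.2% of the members. The proteases Ctss and Lgmn, which trim the invariant chain and antigen, stood at 1050.1 and 238 CPM, and Ifi30, a reductase of endosomal antigen, at 1436 CPM.

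Summed over its 17 genes, the class II list made up 57276, 38772, 47040 and 45785 CPM in libraries 1 to 4, with 16 genes seen and H2-Eb2 at 0. These sums hold H2-Ab1, by which the members were chosen. Without it they were 49842, 33889, 39882 and 39580 CPM. The list, H2-Ab1 included, summed to 47471 CPM in type 1 dendritic cells and 5447 CPM in monocytes. In C1q macrophages it summed to 40709 CPM, with 41600 CPM in library 1 and 23790 CPM in library 2. In mature dendritic cells it summed to 26204 CPM (15393 CPM in those of library 3). In libraries 2 and 4, type 1 dendritic cells summed to 40434 and 49633 CPM, above the members of the same library. In library 1 the order was the other way, with 47013 CPM in 29 type 1 cells and 57276 CPM in 8 members. Monocytes, which had no limit on H2-Ab1, stood below the members in each of libraries 1 to 4, at 23606, 8409, 6450.3 and 5081 CPM.

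**Figure D2:**
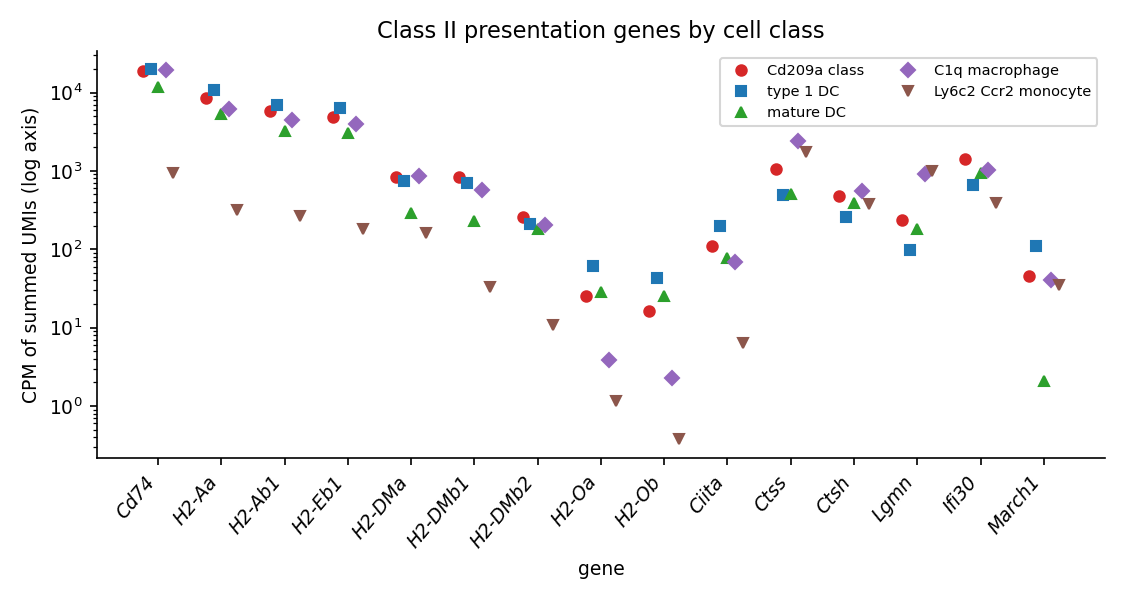
CPM of summed UMIs (log axis) of 15 class II presentation genes (x axis) in the Cd209a class and 4 other classes, 1 point per class. Cd74, H2-Aa, H2-Ab1 and H2-Eb1 in the Cd209a class lie close to type 1 dendritic cells and well above monocytes, which hold 316 CPM of H2-Aa against 8565 CPM. The rules asked for H2-Ab1 in every class drawn except monocytes, so this gap was partly set by the choice of cells.

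Against type 1 dendritic cells, several lectins, Fc receptors, chemokines and monocyte-lineage genes stood higher in the class. Most tested type 1 markers and some class I presentation genes stood lower. The contrast used libraries 2 and 4, where both classes had 20 or more cells. A gene counted as apart if its level, with 10 CPM added, differed 2-fold or more the same way in both libraries. Of 8384 genes tested, 475 (5.67%) were higher and 206 (2.46%) lower in the Cd209a class. With 1 library left, the genes apart numbered 1070 without library 2 and 1437 without library 4, against 681 in both. They numbered 1326 with 1 CPM added and 1531 after thinning. Of the 11 tested type 2 markers, 7 were higher (Clec10a, Mgl2, Sirpa, Itgam, Irf4, Cd7 and Klrd1) and 2 lower (Flt3 and Cd24a), with a median log2 ratio of 2.24 against 0.08 over all genes tested. Clec10a stood at 273 against 0 CPM in library 2 and 369 against 3.07 CPM in library 4. Sirpa stood at 283 against 10.5 and 269 against 12.3 CPM. S100a4, a calcium-binding protein, stood at 1235 against 23.2 and 1712 against 118 CPM, and Csf1r, the receptor for M-CSF, at 184 against 4.22 and 183 against 3.07 CPM. Dmkn, a secreted protein best known from skin, stood at 223 against 4.22 and 679.6 against 6.14 CPM.

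Innate recognition genes were among those higher in this contrast. Of 23 tested C-type lectins and pattern receptors, 11 were higher and 3 lower, with a median log2 ratio of 1.39. Clec4a2 (DCIR), an inhibitory lectin, stood at 141 against 2.11 CPM in library 2 and 247 against 9.21 CPM in library 4. Clec4n (Dectin-2), a receptor for fungal mannans, stood at 309.9 against 6.32 and 244 against 10.7 CPM. The 3 lower were Ly75 (DEC-205), Tlr3 and Tlr11, sensors or uptake receptors of the type 1 lineage. Of 11 tested Fc and scavenger receptors 7 were higher, among them Fcgr3 and Fcer1g, and none lower. Neutrophils held more of both, with 3652 CPM of Fcer1g against 2078 CPM in the class. Of 10 tested chemokine and migration receptors, 7 were higher, with Ccr1 and Ccr2, receptors for inflammatory chemokines, and Cx3cr1 among them, and only Cxcr3 was lower. Of 15 chemokines, 8 were higher (Ccl2, Ccl6, Ccl7, Ccl9, Ccl17, Ccl24, Cxcl1 and Cxcl2). One cell held 24.9% of the Ccl2 UMIs of the class, and neutrophils held Ccl2 at 645 CPM against 605 CPM here. Monocyte and fibroblast markers moved with this contrast, since 6 of 9 and 5 of 8 tested were higher and none lower. The fibroblast list summed to 5874 CPM in the members and 1241 CPM in the type 1 cells of library 2, and to 2278 and 702 CPM in library 4. The part of such RNA in the contrast was not tested.

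Transcription factors and growth factor receptors of dendritic cell development were split between both classes. Of 21 tested, 5 were higher in the Cd209a class (Irf4, Zeb2, Tcf4, Cebpb and Csf1r) and 5 lower (Flt3, Irf8, Id2, Batf3 and Kit). Zeb2, a repressor that restrains the type 1 fate, stood at 43.9, 302, 234 and 377 CPM in libraries 1 to 4 and at 25.3 CPM in type 1 dendritic cells, with 592 CPM in neutrophils. Tcf4, the E protein best known from plasmacytoid cells, stood at 241, 186, 289 and 309 CPM and at 72.7 CPM in type 1 cells and 54.8 CPM in neutrophils. Id2, an inhibitor of E proteins, stood at 197, 339, 109 and 94.8 CPM, against 1046 CPM in type 1 cells and 299 CPM in neutrophils. Klf4, a factor tied to part of the type 2 lineage, was not apart, at 223 against 265 CPM. Cd7, an immunoglobulin-family receptor, stood at 570.1, 116, 154 and 280.2 CPM and Klrd1 (CD94), a lectin-like receptor, at 21.9, 23.8, 40.6 and 96.5 CPM in libraries 1 to 4, with 16.5 and 15.4 CPM in type 1 cells and 4.07 and 1.76 CPM in neutrophils. Of 20 tested genes used to split type 2 dendritic cells into subsets, 11 were higher than in type 1 cells and none lower. The interferon-induced list had 0 higher and 1 lower of 20, and the immediate early and heat shock list 1 higher and none lower of 15. Over all genes tested 5.67% were higher and 2.46% lower, and these small counts were not set apart from that. Of 15 lysosome and lipid genes 7 were higher, such as Ctsb and Ctsd, and Cst3 was lower.

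The genes lower than in type 1 dendritic cells were led by the factor of that lineage. Irf8 stood at 36.1 against 1404 CPM in library 2 and 119 against 2123 CPM in library 4. Of the 8 tested type 1 markers, 7 were lower with a median log2 ratio of -3.21 over the list, among them Naaa, an amide hydrolase (240.1 against 1897 and 75.5 against 1976 CPM), and Wdfy4, needed for cross-presentation (69.8 against 563 and 57.1 against 616 CPM). Gcsam had no UMI in the class and was at least 135-fold higher in type 1 dendritic cells, measured against 3 UMIs over the class. Of 10 tested genes of class I presentation and cross-presentation, 5 were lower (Tap1 and Tap2, the peptide transporter, the immunoproteasome subunits Psmb8 and Psmb9, and Wdfy4) and none higher. Of 14 tested class II genes, 1 was higher (Ifi30) and 1 lower (March1, the ligase that removes class II molecules from the surface). These counts are near the shares over all genes tested, 5.67% higher and 2.46% lower. Cst3, a protease inhibitor, stood at 4254 CPM over the class against 20302 CPM. Of 16 tested cell cycle genes, 3 were lower (Top2a, Mcm6 and Stmn1) and none higher.

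The contrast with mature dendritic cells, which have left antigen uptake behind, rested on library 3 alone, where 42 members stood beside 25 mature cells and 1 member of 86743 UMIs held 14.1% of the class's UMIs. Of 8700 genes tested, 565 (6.49%) were 2-fold or more higher in the Cd209a class and 646 (7.43%) lower. Library 2, with 18 mature cells, was under the limit of 20. With a limit of 10, libraries 2 and 3 had to agree, and 103 genes were higher and 133 lower, 236 in all against 1211. Without the cells of the highest doublet scores the 1211 became 2117, with 1 CPM added 2311 and after thinning 4550, and the cause was not tested. Of the class II list, 9 of 15 tested genes were higher and none lower, with a median log2 ratio of 1.16 against 0.01 over all genes. H2-Aa stood at 9588 against 3079 CPM and Cd74 at 19555 against 6165 CPM. This difference was not seen in library 2, where H2-Aa stood at 7968 against 9175.0 CPM, Cd74 at 17164 against 19904 CPM and the whole list at 38772 against 42625 CPM, with 1 of its genes 2-fold higher and none lower. In library 1 (8 members and 10 mature cells) the list stood at 57276 against 44516 CPM, and in library 3 at 47040.0 against 15393 CPM. Without H2-Ab1, the sums in libraries 1 to 3 were 49842 against 39272, 33889 against 37919 and 39882 against 13243 CPM. March1 stood at 26.0 against 0 CPM in library 3. Of 19 lectins and pattern receptors tested in library 3, 12 were higher, such as Mgl2 (818 against 74.1 CPM), Clec4a3 (112 against 5.05 CPM) and Mrc1, the mannose receptor (192 against 20.2 CPM), and Ly75 was lower. Ccr2 stood at 244 against 21.9 CPM. On the other side, 6 of 7 tested mature markers were lower in the class, with Fscn1, an actin bundler of dendrites, at 55.2 against 1079 CPM and Ccl5 at 16.2 against 1978 CPM. Serpinb9, an inhibitor of granzyme B, stood at 13.0 against 327 CPM and Tnfrsf9 (4-1BB) at 4.87 against 347 CPM. The fibroblast genes Dcn and Postn were also lower here than in the mature cells, and the fibroblast list summed to 3359 CPM in the members and 5627 CPM in the mature cells of library 3. Of 6 tested neutrophil markers 4 were higher (S100a8, S100a9, Csf3r and G0s2). The part of such RNA in this contrast was not tested.

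Against C1q macrophages, the class held less of all tested macrophage markers and more of most tested type 2 dendritic cell markers. This contrast rested on library 2 alone (112 members and 58 macrophages), where 535 of 8398 genes (6.37%) were higher and 519 (6.18%) lower. These 1054 genes became 552 where libraries 2 and 4 had to agree under a limit of 10 cells, 1981 with 1 CPM added and 3283 after thinning. All 9 tested macrophage markers were lower, with a median log2 ratio of -2.82 over the list. Apoe stood at 270.1 against 8674 CPM, Adgre1 (F4/80) at 24.6 against 297 CPM and Trem2 at 29.9 against 331 CPM. Of 11 tested Fc and scavenger receptors 8 were lower, and of 19 interferon-induced genes 10, among them Isg15 and Irf7, with none higher in either list. The chemokines Ccl8 (217 against 6925 CPM) and Pf4 (177 against 4276 CPM) were among the genes furthest below. On the higher side were 7 of 11 tested type 2 markers (Flt3, Mgl2, Itgax, Irf4, Cd7, Klrd1 and Cd24a). Clec10a, Sirpa, Itgam and Zbtb46 were tested and not apart. Mgl2 stood at 1043 against 24.0 CPM, Ccl17, a ligand of Ccr4, at 119.7 against 0 CPM and Cd7 at 116 against 0 CPM. H2-DMb1, H2-DMb2, H2-Oa, H2-Ob and Ciita were higher among 14 class II genes, and the proteases Ctss and Lgmn lower. Of 8 fibroblast genes 7 were higher in the members too, at 5874 CPM summed against 1441 CPM, while neutrophils of that library held 8371 CPM.

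Chemokine and cytokine transcripts of the class were led by genes that neutrophils held at higher levels. Cxcl2, a neutrophil attractant, stood at 789, 2658, 805 and 2578 CPM in libraries 1 to 4 and at 40004 CPM in neutrophils. Il1b stood at 4144, 1814, 1579.6 and 865 CPM and at 12116 CPM in neutrophils, and the share with a UMI at equal depth was 56.7% in the class against 96.2% there. The neutrophil list stood at 1207 CPM in the class against 91129 CPM in neutrophils, and at 373 against 116244 CPM in library 1, where Il1b was highest in the members. The part of free neutrophil RNA in Cxcl2 and Il1b was not tested. Tnip3, an inhibitor of NF-kB signalling, stood at 175, 349, 433 and 369 CPM in libraries 1 to 4, had a UMI in 77.6% of the members and stood at 8.00 CPM in neutrophils, 21.4 CPM in monocytes and 59.5 CPM in type 1 dendritic cells. Ccl17 had a UMI in 32 members, and Il12b, a subunit of IL-12 and IL-23, in 2. The costimulatory ligand Cd86 stood at 197, 114, 141 and 122 CPM and Tnfsf9 (4-1BBL) at 87.7, 90.5, 106 and 117 CPM, with 32.3 and 8.00 CPM in neutrophils. Cd83, a surface protein of activated dendritic cells that stabilises class II, stood at 746, 405, 424 and 137 CPM, lowest in library 4. Cd274 (PD-L1) stood at 175, 58.3, 60.1 and 9.23 CPM with 307 CPM in neutrophils.

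The class was unevenly spread over the libraries. It made up 8 of 7847 kept cells in library 1 (0.102%, 0.0440 to 0.201%), 112 of 8614 in library 2 (1.30%, 1.07 to 1.56%), 42 of 6783 in library 3 (0.619%, 0.447 to 0.836%) and 93 of 8889 in library 4 (1.05%, 0.845 to 1.28%). The intervals of libraries 2 and 4 overlap, and those of libraries 1 and 3 stand below both. Beside these, type 1 dendritic cells numbered 29, 29, 12 and 36, so that library 1 held 0.276 members per type 1 cell and the others 3.86, 3.50 and 2.58. Library 1 also held 1144 of the 1218 C1q macrophages and library 4 2990 of the 3528 monocytes. A share of kept cells depends on how many other cells each library holds. Libraries also differ in depth, with medians of 11698, 2641.5, 2695 and 7182 UMIs per kept cell. Where the rule was applied to cells of 3000 or more UMIs thinned to that number, the shares were 0.118%, 1.93%, 0.852% and 0.826%, with intervals of 1.53 to 2.40% in library 2, 0.562 to 1.24% in library 3 and 0.616 to 1.09% in library 4. Library 2 then stood above library 4, and libraries 3 and 4 no longer differed beyond their intervals. This changed both the cells counted and their depth. The same cells before thinning gave 0.135%, 2.74%, 1.26% and 1.49% in libraries 1 to 4.

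**Figure D3:**
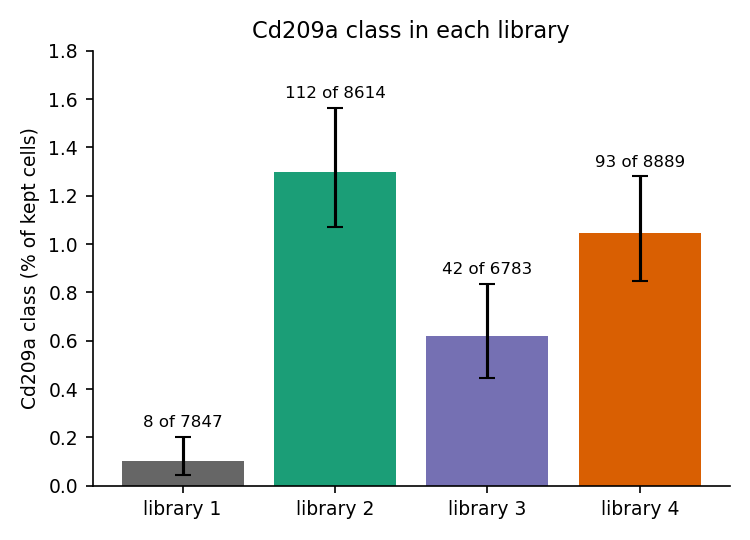
Cd209a class as a percentage of kept cells (y axis) in each of the 4 libraries (x axis), with exact 95% binomial intervals as error bars and the cell counts above each bar. Library 1 is lowest at 0.102% and library 2 highest at 1.30%, with library 4 at 1.05% inside the interval of neither library 1 nor library 3.

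Members of library 4 differed from those of libraries 2 and 3 in Mgl2, which encodes CD301b. Mgl2 stood at 679.8, 1043, 818 and 77.2 CPM in libraries 1 to 4, with intervals of 989 to 1100.3, 748 to 893 and 62.2 to 94.7 CPM in libraries 2, 3 and 4. Its UMIs were in 80 of 112, 23 of 42 and 15 of 93 members of these libraries. At 1000 UMIs per cell the shares were 45.5% (36.1 to 55.2%), 39.0% (24.2 to 55.5%) and 3.23% (0.670 to 9.14%), against at most 0.211% of neutrophils in libraries 2 to 4. The value of library 4 was low and apart from both others. In library 1 the share of its 8 members was 25.0% (3.19 to 65.1%), which overlaps the intervals of all the others. The related Clec10a showed no such gap, with 197, 273, 252 and 369 CPM and thinned shares of 21.4%, 21.9% and 28.0% in libraries 2, 3 and 4. Cd209e was also low in library 4 (7 of 93 members, against 50 of 112 and 9 of 42), and Cd209d was found in 32 of 93, 72 of 112 and 15 of 42 members. At 1000 UMIs per cell the Cd209d shares were 20.4%, 24.1% and 12.2% in libraries 4, 2 and 3, with overlapping intervals. Nr4a3, an immediate-early nuclear receptor, stood at 351, 277, 242 and 52.9 CPM and, as Mgl2 and Cd209e, was lowest in library 4.

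Ccr7, which guides dendritic cells to lymph nodes, had no UMI in the 93 members of library 4. By the limit of 3 counts this allows up to 3.23% of such cells to hold a UMI, which does not limit how many express the gene. It had a UMI in 33 of 112 members of library 2 and 14 of 42 of library 3, and the levels were 21.9, 95.1, 84.4 and 0 CPM. The rule let a member hold Ccr7 only without Ccl22, so these cells are not mature by that rule. In library 2, 11 of the 33 held Il4i1, a mature marker, too, and 22 of all 112 members held it. Neutrophils held Ccr7 in 0.657% and 2.06% of cells in libraries 2 and 3 and in 0% in library 4. Type 1 dendritic cells showed the same order for library 4, with Ccr7 in 5 of 29, 3 of 12 and 0 of 36 cells of libraries 2, 3 and 4. Mature dendritic cells numbered 18 and 25 in libraries 2 and 3 and 1 in library 4.

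**Figure D4:**
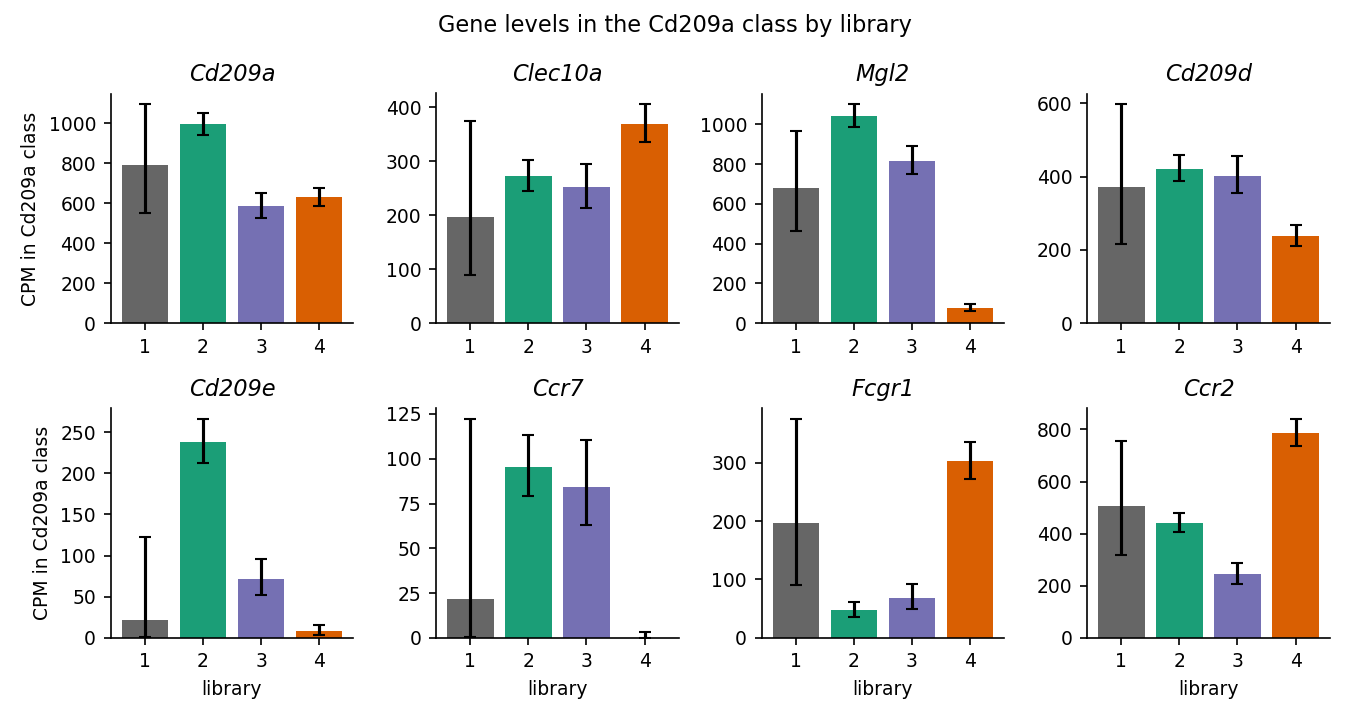
CPM of summed UMIs (y axis, from 0) of 8 genes in the Cd209a class of libraries 1 to 4 (x axis), with exact 95% Poisson intervals as error bars. Mgl2, Cd209e and Ccr7 are lowest in library 4 (77.2, 8.39 and 0 CPM) and Fcgr1 and Ccr2 highest there, while Clec10a stays within 197 to 369 CPM.

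Some monocyte-lineage genes stood higher in the members of library 4 than in those of libraries 2 and 3, and the neutrophils showed the same order. In type 1 dendritic cells the monocyte list summed to 574, 632 and 2247 CPM in libraries 1, 2 and 4, also highest in library 4. The monocyte class did not, with its list at 5921, 6871, 8247 and 8057 CPM in libraries 1 to 4. Fcgr1 (CD64), the high-affinity IgG receptor, stood at 197, 47.6, 68.2 and 303 CPM in the members of libraries 1 to 4, with UMIs in 35 of 112, 17 of 42 and 69 of 93 members of libraries 2, 3 and 4. At equal depth its shares were 3.57% (0.982 to 8.89%), 9.76% (2.72 to 23.1%) and 22.6% (14.6 to 32.4%). Neutrophils gave 1.53%, 6.28% and 12.3% (10.7 to 14.1%), so the members of library 4 stood above them while those of libraries 2 and 3 were not apart. Ly6c2 stood at 65.8, 13.0, 16.2 and 228 CPM in the members. At equal depth its share in library 4 was 14.0% against 14.6% of neutrophils, so it was not above the share in that class. The type 1 dendritic cells of library 4 gave 5.56% (0.680 to 18.7%) at equal depth. Without thinning, 69.4% of these deeper cells and 53.8% of members held Ly6c2. Ccr2, the receptor that draws monocytes and their progeny out of the blood, stood at 504, 441, 244 and 788 CPM, with equal-depth shares of 31.2%, 17.1% and 52.7% in libraries 2 to 4 against 6.36% of neutrophils in library 4 and 10.3%, 8.33% and 22.2% of type 1 dendritic cells in libraries 2 to 4. The whole monocyte list of 10 genes summed to 3421, 1765, 1934 and 4919.8 CPM in the members and 1520.3, 1639, 2345 and 5010.3 CPM in neutrophils, with Plac8 its most abundant gene and none of the 10 at 0. The part of free monocyte RNA in these levels was not tested.

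**Figure D5:**
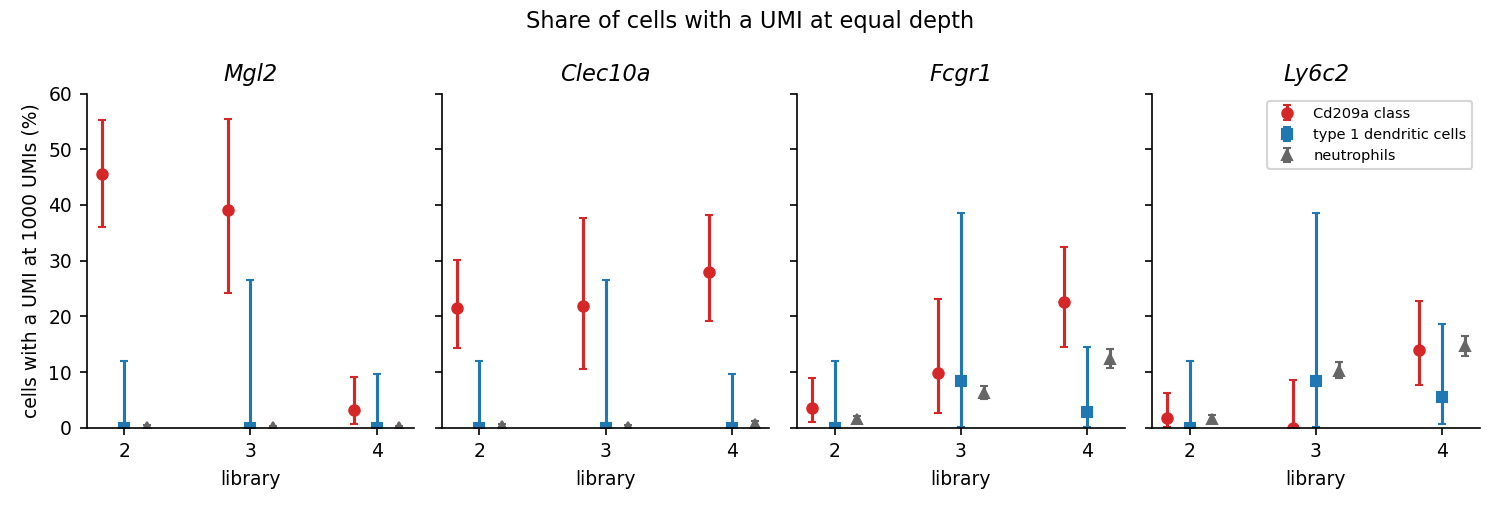
Percentage of cells with a UMI after every cell was thinned to 1000 UMIs (y axis) in libraries 2, 3 and 4 (x axis), for the Cd209a class, type 1 dendritic cells and neutrophils, with exact 95% binomial intervals. Mgl2 in the class is at 45.5% in library 2 and 3.23% in library 4, whereas Ly6c2 in library 4 lies at the neutrophil value of 14.6%.

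Flt3 and Fcgr1, read as opposite lineage signs, were found together in part of the members. Of the 78 members with Flt3, 38 also held Fcgr1 (48.7%), near its share over all members (49.0%). Mgl2, a listed type 2 marker, was in 31 of the 78 (39.7%), against 47.5% of all members. In library 4, 24 of the 35 Flt3 cells held Fcgr1, as did 45 of the 58 without Flt3, and in library 2 these counts were 9 of 30 and 26 of 82. Within library 4, Cd209a stood at 539 CPM with and 1016 CPM without Fcgr1. Apoe stood at 678 CPM with and 182 CPM without Fcgr1 and Isg15, an interferon-induced gene, at 625 CPM with and 106 CPM without it. The class II gene H2-Aa hardly differed, at 8561 CPM with and 8910.3 CPM without Fcgr1. Cells with Fcgr1 were also the deeper ones (median 12391 against 8663 UMIs in library 4), which by itself makes a UMI more likely. In library 2, members with Mgl2 held more class II RNA than those without, H2-Aa standing at 8947 CPM with and 5293 CPM without Mgl2 and Cd74 at 19318 CPM with and 11279 CPM without it. The same order was seen in library 3 (H2-Aa at 10853 CPM with and 7684 CPM without Mgl2) and in library 4 (10482 CPM with and 8230.4 CPM without it, on 15 cells). In library 3 the deepest member, of 86743 UMIs, held no Mgl2, and its part in the lower sum was not tested. Members with Mgl2 were also deeper, with medians of 10601 against 9631.5 UMIs in library 2, 13017 against 7434 in library 3 and 13252 against 10215.5 in library 4. In library 2 the members without Mgl2 included cells of 28232, 32884 and 42438 UMIs, and those with it cells of 41523 and 54898 UMIs. The part of such deep cells in the sums was not tested. Cd209d went with Mgl2 in library 2 (504 CPM with and 195 CPM without Mgl2) and in library 3 (619 CPM with and 77.3 CPM without it), but not in library 4 (224 CPM with and 241 CPM without it). Fibroblast RNA went the other way in library 2, where Col3a1 stood at 1090 CPM with and 6338 CPM without Mgl2, and its part in this was not tested.

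Several other genes varied widely between libraries, and in some of them 1 cell held much of the RNA. By the ratio of the highest to the lowest library with 20 or more members, these were Saa3, Retnla, Ccl24, Apoe, Hp and Ccl12, beside Cd209e, Mgl2, Ccr7 and Ly6c2. Retnla, a marker of alternative activation, was seen only in library 2, with 49.2% of its UMIs in 1 cell. For Hp this share was 44.3%, for Ccl12 38.0% and for Saa3 33.6%, while it was 16.6% for Ccl24, which 13.7% of members held. Apoe was more widely spread, with 12.4% in its top cell. It stood at 175, 270.1, 47.1 and 584 CPM and was in 33.3% of members of library 3 and 89.2% of library 4.

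Among markers of other cells, those of fibroblasts and monocytes stood highest in the class. Col3a1, the most abundant gene of the fibroblast list, had a UMI in 94.5% of members and 62.1% of neutrophils, and stood at 21.9, 2496, 1542 and 1167 CPM in libraries 1 to 4. The whole fibroblast list summed to 109.6, 5874, 3359 and 2278 CPM in members and 160.0, 8371, 2759 and 1353 CPM in neutrophils, and all 8 of its genes were seen. The neutrophil list summed to 1207 CPM in members, led by S100a9, against 91129 CPM in neutrophils. The macrophage list of 12 genes summed to 1053, 1448, 610.4 and 1800.5 CPM in members, led by Apoe, and to 22634 CPM in C1q macrophages. Of that last sum, C1qa, C1qb and C1qc, by which the rules chose both classes, gave 4893, 3553 and 2964 CPM. Ncr1, Eomes and Klra8 of the NK list, Ms4a1 and Pax5 of the B cell list and Mcpt8 and Gata2 of the basophil and mast cell list were at 0. These lists summed to 2.85, 49.4 and 16.5 CPM, led by Gzma, Ebf1 and Cpa3. The T cell list summed to 53.5 CPM, led by Cd3e. The tumour or epithelial list summed to 161 CPM, led by Cdh1, which dendritic cells can express, and the endothelial list to 47.8 CPM, led by Pecam1.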

How the data were processed

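The authors deposited a single matrix of raw UMI counts for 55450 genes and 33064 barcodes, made by Cell Ranger. Version 2.1.1 with the mm10 build stands in the submitters' processing notes, 3.0.2 in the study's methods and 6.1.2 in the matrix header. The limits of the study's methods on genes and mitochondrial UMIs left 32133 barcodes here, more than the cell number the study states. All 55450 gene identifiers were found in GENCODE vM21 (GRCm38), used for coordinates.

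UMI counts were summed by library and class and scaled to CPM, with exact Poisson intervals, and shares carry exact Clopper-Pearson intervals. A count of 3 UMIs set the limit for a count of 0. Contrasts used libraries with at least 20 cells of both classes, genes at 10 CPM or more, 10 CPM added and a 2-fold limit in every library used. They give no p-value, because suffixes are not tied to samples. The 11 rule genes were left out of counts, and CPM was not divided by gene length, since a UMI tags 1 molecule. Doublets were kept. Scrublet in scanpy 1.11.5 marked 2.75%, 0.0116%, 0% and 1.73% of cells in libraries 1 to 4, so its threshold did not work in libraries 2 and 3. It marked 1 member, and 19 members were in the highest 5% of scores. Of 101 barcode sequences present in more than 1 library, 1 belonged to a member. Thinning to 1000 UMIs left out 1 member and 234 neutrophils.

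The members, the 29 gene lists (349 of 352 genes in the matrix) and the contrasts were chosen with earlier results of these data known. Named genes were the list genes, the 20 most abundant genes, the 15 highest and 15 lowest genes of each contrast, the 10 most variable between libraries and the 10 nearest to Cd209a. The contrast step was tested on simulated data. Python 3.11.15, numpy 2.4.6, scipy 1.17.1, pandas 2.3.3 and matplotlib 3.10.9 were used. Some list members are not reported here by name.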

Additional observations from a re-analysis of the deposited data

How the results depend on the processing

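No paired analysis was possible because the barcode suffixes are not tied to samples and no group comparison was made. The share of kept cells in the Cd209a class (0.794%) moved to 1.03% with a Cd209a minimum of 1, to 0.669% with a minimum of 3 and to 0.243% where Flt3 was demanded, and leaving out each library in turn gave 0.608 to 1.02% (lowest without library 2, highest without library 1). It stayed within its interval under the limits on H2-Ab1, genes, mitochondrial UMIs and C1q, without the highest doublet scores, for cells of 1000 or more UMIs, and where the rule was applied after thinning to 3000 UMIs, an alternative chosen after seeing the data (0.843%).

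The genes apart from type 1 dendritic cells (681) numbered 1326 with 1 CPM added and 1531 after thinning, and 682 to 1437 with each library left out (1070 without library 2, 1437 without library 4, on the 1 library left). Those apart from mature dendritic cells (1211) numbered 2117 without the highest doublet scores, 2311 with 1 CPM added and 4550 after thinning, and 1214 to 1220 without library 1, 2 or 4. Those apart from C1q macrophages (1054) numbered 1981 with 1 CPM added and 3283 after thinning, and 1055 to 1114 without library 1, 3 or 4. With 10 cells of both classes required in a library, also chosen after seeing the data, the counts were 498 over libraries 2, 3 and 4 for type 1 dendritic cells, 236 over libraries 2 and 3 for mature dendritic cells and 552 over libraries 2 and 4 for C1q macrophages. More or fewer libraries enter these counts by construction, and for the other shifts the cause was not tested. Leaving out library 3 gave no contrast with mature dendritic cells, demanding Flt3 gave none either, and leaving out library 2 gave none with C1q macrophages. The other alternatives stayed within 1.5 times of each count. The share of members with Mgl2 was 28.7% without library 2 and 65.4% without library 4, and that with Fcgr1 62.9% and 34.6%. The share with Cd209d was 34.3% and 54.9%, and that with Ly6c2 39.9% and 9.88%.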

Other observations

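Cd3e, a subunit of the T cell receptor complex that the rule did not use, had a UMI in 27 of the 255 members, 18 of them in library 2, 5 in library 3 and 4 in library 4. They held 128 Cd3e UMIs, and only 1 of the 27 also held a UMI of Trac, Trbc1 or Trbc2. Among the 2280 cells with Cd3d or Cd3g, 1152 held Cd3e and 1032 of these a UMI of those receptor genes. At equal depth, Cd3e was in 0% and 2.44% of members of libraries 2 and 3, against 1.53% and 0.710% of neutrophils. One cell held 34.4% of the Cd3e UMIs of the class. In the contrast with mature dendritic cells of library 3, Cd3e stood at 97.4 against 3.37 CPM.

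Cycling cells were counted as those with 3 or more UMIs over 7 cell cycle genes. These were 24 of 255 members (9.41%, 6.12 to 13.7%), with 0 of 8, 11 of 112, 7 of 42 and 6 of 93 in libraries 1 to 4. In type 1 dendritic cells, which were deeper (median 16490.5 against 10185 UMIs), the share was 22.6%, and by library 31.03%, 27.6%, 8.33% and 16.7%, so that library 3 had the other order.

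Siglech and Klk1, markers of plasmacytoid dendritic cells, were found in 15 and 7 members, 9 and 5 of them in library 4. In that library they stood at 85.6 and 109 CPM over the class, and Siglech stood at 141 CPM with and 0 CPM without Ly6c2. Irf8 stood at 180.2 CPM with and 25.5 CPM without Ly6c2 in the same members. Of these, 50 held Ly6c2 and 43 did not, and those with it were deeper (median 11253.5 against 10121 UMIs). The plasmacytoid list of 8 genes summed to 636, 543, 584 and 1269 CPM in libraries 1 to 4, led by Bst2, with Ly6d at 0.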
